A study of Mus musculus with 7 samples.

Results

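The 34 genes described here encode the machinery that brings new secretory and membrane proteins into the endoplasmic reticulum and attaches their first N-linked glycans. They were chosen by function, as named subunits of the signal recognition particle and its receptor, the Sec61 translocon and its partners, the translocon-associated protein complex, signal peptidase and oligosaccharyltransferase. Earlier results of these data were known when they were chosen. The probes' accessions led to 33 of the 34 genes, and 32 could be tested, of 16939 items tested in all. No probe matched Dad1, and Sec11c is given below without a test in the main comparison. Expression was measured in total RNA of 7 prostate samples from C57Bl/6 mice. The 4 control samples carried the ROSA(N1IC) allele without Cre and are described by the labels as wild-type for NICD, the intracellular domain of Notch1. The 3 PB-NICD samples carried ARR2PB-Cre together with ROSA(N1IC), expressed NICD in the prostate and came from a model with prostatic intraepithelial neoplasia (PIN). ARR2PB is a probasin promoter active in prostate epithelium, so the allele is switched on in those cells and not in the whole gland. Ages are not given in the sources used here, nor whether a sample was 1 animal or a pool, so p-values measure the spread between these samples. Each sample was set against one universal mouse reference RNA on a 2-colour array, and every value is a log2 ratio of prostate over reference unless a difference is named.

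As background, a signal peptide emerging from the ribosome is bound by the signal recognition particle, which docks at its receptor on the reticulum membrane and hands the ribosome to the Sec61 channel. Beside the channel, signal peptidase removes the signal peptide. There oligosaccharyltransferase moves a preassembled sugar chain from a dolichol lipid onto asparagines of the growing protein. Glands such as the prostate, whose luminal cells secrete large amounts of protein, use this machinery heavily, and many of its genes are known targets of the unfolded protein response factors Xbp1 and Atf6.

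The promoters of these genes are shown because most of the set was lower in the same samples, and because the response factors just named bind known words in promoters. RefSeq windows of GRCm38.p6 (250 bases before to 50 after the start of a gene) were found for 25 of the 34 genes. The ER stress response element was searched as CCAAT, then any 9 bases, then CCACG, and the unfolded protein response element as TGACGTGG, both on both strands. Neither was found in any of the 25 genes' windows, and over all genes of the table the first was in 0.137% and the second in 0.714% of 27025. The short word CCACG alone, which is the last part of the first element and, read on the other strand, the end of the second, was in 16 of the 25 genes (64%) and in 35.5% of all genes. The word CCAAT alone was in 15 of the 25 (60%) and in 41.1% of all genes. These are matches of letters in short windows, described without a test. Below are the 250 bases before the start for the gene with the largest fall (Ssr4, chrX:73786773-73787022, plus strand), for a signal peptidase gene with 3 copies of CCACG (Spcs1, chr14:31001667-31001916, minus strand), for the gene with the smallest adjusted p (Ssr3, chr3:65392554-65392803, minus strand) and for the gene with the smallest difference (Sec62, chr3:30792626-30792875, plus strand). Each runs 5′ to 3′ on the gene's strand, and capitals mark CCACG and CCAAT on either strand.
Ssr4: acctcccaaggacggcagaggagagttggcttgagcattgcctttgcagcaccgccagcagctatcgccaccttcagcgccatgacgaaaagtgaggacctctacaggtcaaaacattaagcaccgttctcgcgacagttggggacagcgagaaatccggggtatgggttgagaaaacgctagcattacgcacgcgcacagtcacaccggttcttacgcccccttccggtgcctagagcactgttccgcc
Spcs1: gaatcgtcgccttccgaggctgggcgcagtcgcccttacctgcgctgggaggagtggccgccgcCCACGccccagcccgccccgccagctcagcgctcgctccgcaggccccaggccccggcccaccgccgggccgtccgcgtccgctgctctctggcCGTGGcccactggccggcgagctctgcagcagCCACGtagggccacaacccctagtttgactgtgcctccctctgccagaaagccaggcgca
Ssr3: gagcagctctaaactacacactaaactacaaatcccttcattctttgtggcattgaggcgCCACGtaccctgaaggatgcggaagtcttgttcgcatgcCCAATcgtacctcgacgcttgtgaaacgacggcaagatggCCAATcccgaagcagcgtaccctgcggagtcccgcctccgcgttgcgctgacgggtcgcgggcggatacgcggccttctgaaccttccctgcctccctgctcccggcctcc
Sec62: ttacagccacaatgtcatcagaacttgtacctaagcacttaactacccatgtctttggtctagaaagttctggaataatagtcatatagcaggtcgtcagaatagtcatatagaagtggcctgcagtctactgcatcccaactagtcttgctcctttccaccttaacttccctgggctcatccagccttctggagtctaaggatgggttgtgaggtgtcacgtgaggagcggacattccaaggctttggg
The windows of Ssr4 and Sec62 hold neither word. Over the tested genes with a window, the median change was -0.79 for the 15 with CCACG and -0.97 for the 9 without it. Whether these words bear on the changes was not tested.

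The sample channel was dim on every array, with a median spot signal of 69 to 107 over a background of 53 to 55, and 44.8% to 66.8% of probes were well above background in it. On each slide the PB-NICD arrays had the brighter sample channel (88 against 69 and 70 on slide 1, 106.5 and 107 against 86 and 87.5 on slide 2). Notch1, the gene whose domain the model expresses, had log2 ratios of 0.05, 0.30, 0.84 and 0.67 in controls 1 to 4 and of 2.47, 2.63 and 2.74 in PB-NICD 1 to 3 on its 1 probe, with the PB-NICD 1 spot marked as an outlier. On PB-NICD 1, 9 spots had a local background over 2 times the array's median, up to 47872, and left as deposited they made the background model compress every ratio of that array (median absolute deviation 0.0578, against 0.338 to 0.434 on the other arrays). With these backgrounds set to the array's median it was 0.374, and the correlation of PB-NICD 1 with the authors' value table rose from 0.831 to 0.99, the range over the other arrays being 0.989 to 0.995. The values below use the replaced backgrounds, a choice made after seeing the data, and the count of calls is also given without it. No spot of the 34 genes was among the 14 such spots. Prostate tissue was marked by Pbsn, the probasin gene, at 10.06 to 11.70 in controls and 9.81 to 10.15 in PB-NICD. The seminal vesicle secretion gene Svs4 stood at 2.36 and 9.39 in controls 1 and 2 and at 5.75 in PB-NICD 1, against -0.28 to 0.71 in the other 4 samples. These 3 samples thus stood apart for that tissue. They are also the 3 arrays of slide 1, so seminal vesicle tissue and slide cannot be told apart.

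All 32 tested genes were lower in PB-NICD than in control prostate, and 26 of them passed the test (called lower: limma, two-sided, Benjamini-Hochberg adjusted p under 0.05 over all items). None was called higher, while 31 of the 32 had an unadjusted p under 0.05, every one of them lower, beside 12.8% of all items lower and 8.93% higher at that p. Over all 16939 items 5.07% were called lower (859) and 3.57% higher (604). The median change of the 32 genes was -0.78 on the log2 scale (range -1.59 to -0.18), beside -0.03 for all items, of which 54.5% lay below 0. Deviations from the control mean were also taken per array, with outlier spots kept. Their median over the genes was -0.89, -0.76 and -0.62 in PB-NICD 1, 2 and 3 and between -0.07 and 0.08 in the controls. Within slide 1 the median was -0.85 over 30 genes and within slide 2 it was -0.76 over 32. In bulk tissue, fewer cells of a type and less RNA per cell cannot be told apart.

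The calls moved with how the arrays were normalised, and 17 of the 26 held with each array left out in turn. With the backgrounds as deposited, 17 of the 32 genes were called lower, beside 2.29% of all items (388 lower and 69 higher), and all 17 were among the 26. Of the 3 samples with high Svs4, leaving out control 1 gave 22 calls (median -0.75), leaving out control 2 gave 23 (-0.79) and leaving out PB-NICD 1 gave 19 (-0.71). Slide 2 holds none of these 3 samples. Within it the median was -0.76, and 16 of the 28 genes with a p-value were called lower, beside 3.38% of all items. Centring each array on its median in place of loess moved the median of all items to 0.27 and left 2 genes called lower, with 279 items lower and 4314 higher over the whole array. Under that setting 13 of the 32 genes lay above 0, 7 of them among the 26 (Srp19, Srp68, Srp72, Tram1, Ssr2, Rpn2 and Ddost), and Srp14 (-0.98, adjusted p = 0.00333) and Ssr4 (-1.04, 0.00553) were the 2 that kept the call. The genes' median was -0.09, which is -0.36 relative to the shift, and 31 of 32 lay below the median of all items. In the sample channel alone, without the reference, the genes' median was -0.49 and 12 were called, with 538 items lower and 596 higher. The part of the brighter PB-NICD sample channel in these differences was not tested.

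**Figure D1:**
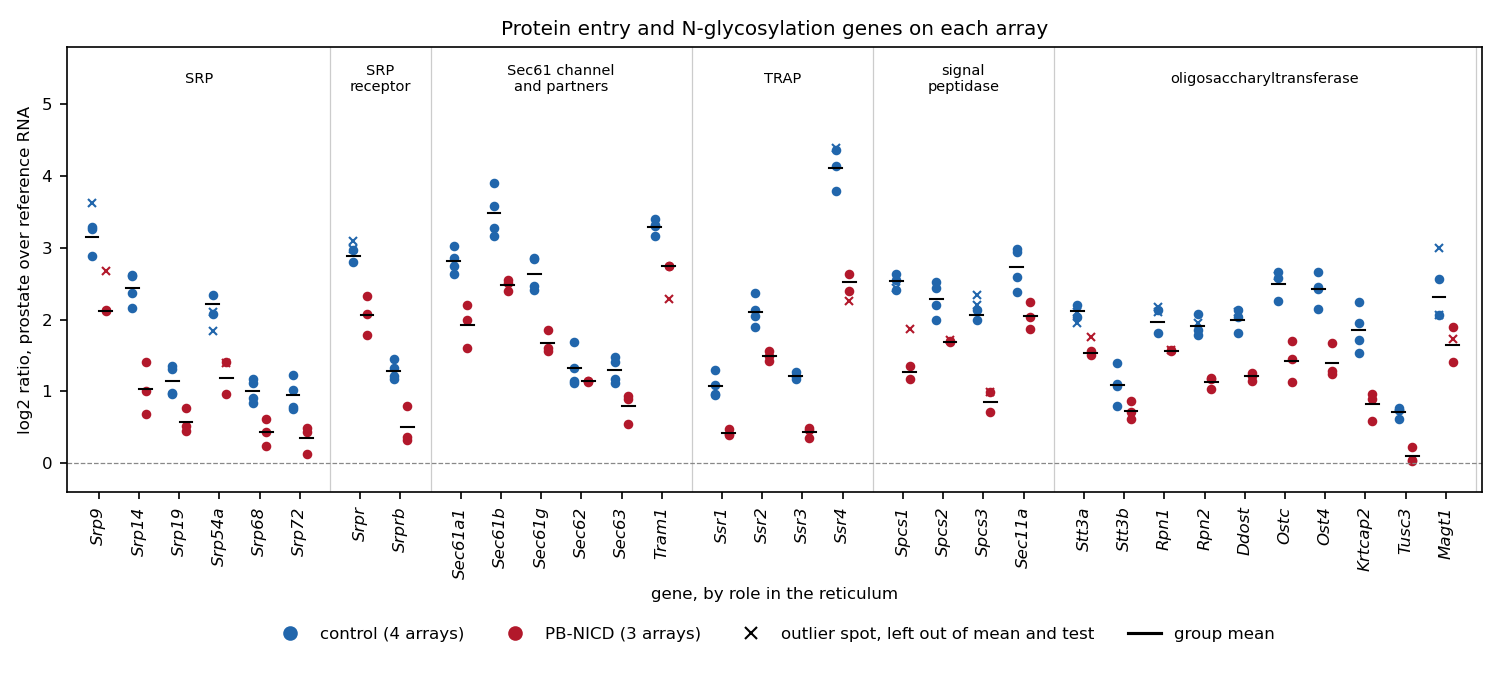
Log2 ratio of prostate over reference RNA (vertical axis) for each of the 32 tested genes, grouped by role, with 1 point per array, crosses for outlier spots and a bar at each group mean. For 30 of the 32 genes every PB-NICD point lies below every control point, outlier spots included (13% of all items with 7 such values), and Stt3b and Sec62 are the genes whose groups overlap.

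The signal recognition particle, the cytosolic complex that catches signal peptides, had 6 of 6 genes called lower, with a median change of -0.81. Srp14 and Srp9 encode the pair of proteins that pauses translation. Srp14 stood at 2.37, 2.16, 2.62 and 2.61 in controls 1 to 4 and at 1.00, 0.69 and 1.41 in PB-NICD 1 to 3. The groups were apart by more than the spread within either, and the change was -1.41 ± 0.18 (SE, n = 4 and 3, limma adjusted p = 0.000957), a 2.65-fold fall. Srp9 stood at 3.27, 2.89 and 3.29 in controls 1, 3 and 4 and at 2.12 and 2.13 in PB-NICD 1 and 2, the other 2 spots being outliers, and fell by 1.03 ± 0.16 (adjusted p = 0.00611). Both genes kept their call with each array left out. With median centring Srp9 lost it (-0.41, adjusted p = 0.152), as in the sample channel alone (-0.44, 0.336), and Srp14 kept it in both.

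Srp54a encodes the GTPase subunit that binds the signal peptide. It stood at 2.08 and 2.35 in controls 2 and 4 and at 0.97 and 1.41 in PB-NICD 1 and 2, and its change was -1.03 ± 0.20 (adjusted p = 0.0218). The other 3 spots were outliers, and with them kept the change was -0.84 (limma adjusted p = 0.00633). Its other probe gave -1.22 (limma adjusted p over all tested probes 0.00863). With the 3 outlier spots of that probe kept it gave -0.82, and the groups overlapped (control 1 at 1.37, PB-NICD 2 and 3 at 1.41). The mouse genome has near-identical copies of this gene (Srp54b and Srp54c), which such a probe may not separate. Srp19, Srp68 and Srp72 encode the proteins that assemble on the RNA of the particle, and they showed the smaller falls of the complex: -0.57 ± 0.14 (adjusted p = 0.0313), -0.58 ± 0.13 (0.0227) and -0.60 ± 0.15 (0.0325). Srp68 ran from 0.84 to 1.18 in controls and from 0.24 to 0.61 in PB-NICD, and Srp72 from 0.75 to 1.23 and from 0.13 to 0.49. The other tested probes of Srp72 gave -0.41 and -0.53 and were not called (limma adjusted p over all tested probes 0.0959 and 0.102). Averaged over its probes, Srp72 was at -0.48 and was not called either (limma adjusted p = 0.0621). Srp19 ran from 0.96 to 1.35 in controls and from 0.45 to 0.77 in PB-NICD. In all 3 the groups did not overlap, but their calls were lost when any of several arrays was left out, with changes that stayed between -0.67 and -0.48. Srp19 lost its call if control 1 or 3 or PB-NICD 1 or 2 was left out (largest adjusted p 0.128), Srp54a without control 4 or PB-NICD 1 (0.105, changes from -1.25 to -0.81), Srp68 without control 4 or without PB-NICD 1 or 2 (0.103), and Srp72 without control 3 or 4 or any PB-NICD array (0.116). All 4 also lost it with the backgrounds as deposited (adjusted p = 0.0829, 0.118, 0.057 and 0.101).

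Both subunits of the particle's receptor, which holds it at the reticulum membrane, were called lower. Srprb, the membrane-anchored beta subunit, stood at 1.17, 1.22, 1.45 and 1.33 in controls and at 0.33, 0.36 and 0.80 in PB-NICD, a change of -0.79 ± 0.14 (adjusted p = 0.0061). Another probe gave -0.49 (adjusted p over all tested probes 0.0894), or -0.76 with its 1 outlier spot, PB-NICD 1 at 0.07, kept. The third gave -0.12 (0.856) and was well above background on 2 control arrays and 1 PB-NICD array. Srpr, the alpha subunit and a GTPase, stood at 2.81 and 2.97 in controls 2 and 4 and at 1.79, 2.08 and 2.33 in PB-NICD, a change of -0.82 ± 0.18 (adjusted p = 0.0265). All 3 of its probes were called lower, with changes of -0.82, -1.0 and -1.03. The Srpr call was lost when control 2 or 4 or PB-NICD 1 or 2 was dropped (largest adjusted p 0.133) and with the backgrounds as deposited (0.157). With median centring Srprb (-0.13, adjusted p = 0.702) and Srpr (-0.08, 0.823) were not called, and in the sample channel alone both were (0.014 and 0.0275).

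Of the Sec61 channel and its partners, 5 of 6 genes were called lower, with a median change of -0.72. The 3 subunits of the channel itself were apart from control by similar amounts. Sec61a1, which forms the pore, stood at 2.64, 2.75, 2.86 and 3.02 in controls and at 1.60, 1.99 and 2.21 in PB-NICD (-0.89 ± 0.16, adjusted p = 0.00587). Sec61b, a small tail-anchored subunit, stood at 3.91, 3.28, 3.58 and 3.17 in controls and at 2.40, 2.51 and 2.55 in PB-NICD (-1.0 ± 0.17, adjusted p = 0.0048). Sec61g, the small subunit that clamps the pore, stood at 2.85, 2.86, 2.47 and 2.41 in controls and at 1.61, 1.56 and 1.85 in PB-NICD (-0.97 ± 0.15, adjusted p = 0.00255). Each of the 3 was thus close to 2-fold lower (1.85-, 1.99- and 1.96-fold), with no overlap between groups, and kept its call with each array left out and in the sample channel alone. With median centring all 3 lost it, at -0.16, -0.27 and -0.21 (adjusted p = 0.655, 0.364 and 0.345).

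The channel's partners differed more among themselves. Tram1, a membrane protein beside the channel that contacts signal peptides, stood at 3.30, 3.32, 3.40 and 3.16 in controls and at 2.75 in both PB-NICD 2 and PB-NICD 3, a change of -0.55 ± 0.12 (adjusted p = 0.0256). Another of its probes gave -0.44 (adjusted p over probes 0.146) and the third by -0.07 (0.838). Sec63, a J-domain protein that recruits the chaperone BiP to the channel, stood at 1.12, 1.18, 1.41 and 1.48 in controls and at 0.54, 0.89 and 0.93 in PB-NICD, and its change of -0.51 ± 0.14 lay just under the threshold (adjusted p = 0.04995). Sec62, which helps small proteins enter after translation, had values of 1.15, 1.12, 1.33 and 1.69 in controls and of 1.13, 1.15 and 1.14 in PB-NICD, so that the groups overlapped. Its difference was -0.18 ± 0.14 (adjusted p = 0.527), the smallest of the set. Tram1 lost its call when control 1 or 2 or PB-NICD 2 or 3 was dropped (largest adjusted p 0.134), and Sec63 whichever of the 7 arrays was dropped (0.17). Both also lost it with the backgrounds as deposited (0.0886 and 0.153).

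All 4 genes of the translocon-associated protein complex, which sits beside the channel and helps weak signal peptides enter, were called lower, with a median change of -0.72. Ssr4, the delta subunit, had the largest change of the set. It stood at 4.37, 3.80 and 4.14 in controls 1, 3 and 4 and at 2.40 and 2.63 in PB-NICD 1 and 3, the other spots being outliers, and fell 3.01-fold (-1.59 ± 0.19, adjusted p = 0.00147). Its other probe gave -1.73 on all 7 arrays, with controls from 3.87 to 4.43 and PB-NICD from 2.30 to 2.58. Ssr3, the gamma subunit, had the tightest replicates: 1.27, 1.22, 1.21 and 1.18 in controls and 0.46, 0.35 and 0.49 in PB-NICD. Its change of -0.79 ± 0.10 had the smallest adjusted p of the set (0.000899).

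Ssr1, the alpha subunit, stood at 0.97, 0.95, 1.09 and 1.30 in controls and at 0.39, 0.40 and 0.48 in PB-NICD (-0.66 ± 0.12, adjusted p = 0.00611). Ssr2, the beta subunit, stood at 2.37, 2.13, 1.90 and 2.05 in controls and at 1.42, 1.49 and 1.56 in PB-NICD (-0.62 ± 0.13, adjusted p = 0.0127). The 2 groups were apart for both genes, and the changes of the alpha, beta and gamma subunits lay between -0.79 and -0.62, beside -1.59 for delta. Whether delta differed from them was not tested. Ssr2 missed the threshold without PB-NICD 1 (adjusted p = 0.0518) and with the backgrounds as deposited (0.0502), and the other 3 genes kept their call in both. With median centring Ssr1 was at -0.12, Ssr2 at 0.09 and Ssr3 at -0.09, and in the sample channel alone at -0.33, -0.15 and -0.49, without a call in either setting (adjusted p from 0.127 to 0.807).

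Signal peptidase, the membrane protease that removes signal peptides, has 5 genes in the set. Of the 4 tested, 3 were called lower, and the median change was -0.95. Spcs1 and Spcs3 fell most. Spcs1, a small subunit, stood at 2.55, 2.64 and 2.42 in controls 1, 3 and 4 and at 1.35 and 1.18 in PB-NICD 1 and 2 (-1.27 ± 0.14, adjusted p = 0.00107). Its spots on control 2 (2.44) and PB-NICD 3 (1.87) were outliers, and with them kept the change was -1.05 (limma adjusted p = 0.00218). Spcs3, a glycoprotein subunit needed for cleavage, stood at 1.99 and 2.13 in controls 2 and 4 and at 0.71 and 0.99 in PB-NICD 1 and 3 (-1.21 ± 0.17, adjusted p = 0.00512). Its other probes gave -1.29 and -1.45, so all 3 were over 2-fold lower in PB-NICD, and with the outlier spots kept the chosen probe gave -1.27 (adjusted p = 0.000133). With the backgrounds as deposited, Spcs3 missed the threshold (adjusted p = 0.0512). With median centring both genes were at -0.65 and missed it (0.0578 and 0.0644), and in the sample channel alone Spcs1 passed (-0.93, 0.00574) and Spcs3 did not (-0.49, 0.199).

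Sec11a, a catalytic subunit, stood at 2.94, 2.39, 2.99 and 2.59 in controls and at 2.24, 2.04 and 1.87 in PB-NICD, and fell by 0.68 ± 0.16 (adjusted p = 0.0299). This call was lost when control 1 or 3 or PB-NICD 2 or 3 was dropped (largest adjusted p 0.111), with median centring (-0.08, 0.819) and in the sample channel alone (-0.49, 0.0767). Spcs2, another accessory subunit, stood at 2.52, 2.44, 2.00 and 2.21 in controls and at 1.69 and 1.70 in PB-NICD 1 and 3. It missed the threshold (-0.60 ± 0.16, adjusted p = 0.0516), but its other probe, with controls from 3.01 to 3.37 and PB-NICD from 2.18 to 2.49, was called over all tested probes (-0.76, adjusted p = 0.00538). Sec11c, the second catalytic subunit, had 2 of its 3 PB-NICD spots marked as outliers. With them kept it stood at 3.96, 3.89, 3.57 and 4.05 in controls and at 3.19, 3.34 and 3.84 in PB-NICD, so that the groups overlapped (-0.41 ± 0.17, adjusted p = 0.19).

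Oligosaccharyltransferase had 6 of its 10 tested genes called lower, with a median change of -0.72. All 6 encode non-catalytic subunits. Ostc, a subunit that ties the enzyme to the channel, stood at 2.66, 2.58 and 2.26 in controls 1, 2 and 4 and at 1.45, 1.13 and 1.70 in PB-NICD (-1.08 ± 0.17, adjusted p = 0.00479). Krtcap2, the other subunit of that kind, stood at 2.24, 1.53, 1.95 and 1.71 in controls and at 0.90, 0.59 and 0.96 in PB-NICD (-1.04 ± 0.17, adjusted p = 0.00413). Ost4, a very small subunit bound to the catalytic one, stood at 2.45, 2.15, 2.67 and 2.43 in controls and at 1.28, 1.24 and 1.67 in PB-NICD (-1.03 ± 0.15, adjusted p = 0.00228). These 3 genes were each about 2-fold lower (2.11-, 2.06- and 2.04-fold) with no overlap between groups.

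Ddost and Rpn2, core subunits of both forms of the enzyme, fell by nearly the same amount. Ddost stood at 2.14, 2.04 and 1.82 in controls 1, 2 and 4 and at 1.14, 1.26 and 1.22 in PB-NICD (-0.80 ± 0.12, adjusted p = 0.00421). Rpn2 stood at 1.79, 1.85 and 2.08 in controls 1, 2 and 4 and at 1.04, 1.17 and 1.19 in PB-NICD (-0.78 ± 0.12, adjusted p = 0.00475). Tusc3, an oxidoreductase-like subunit of the form that holds Stt3b, stood at 0.62, 0.74, 0.74 and 0.77 in controls and at 0.03, 0.04 and 0.22 in PB-NICD (-0.62 ± 0.10, adjusted p = 0.00449). Its PB-NICD values lay near those of the reference RNA. The 6 called subunits kept their calls with each array left out in turn and with the backgrounds as deposited. With median centring none of the 6 kept it (Ostc -0.38, Krtcap2 -0.41, Ost4 -0.40, Tusc3 -0.29, Ddost 0.09 and Rpn2 0.08). In the sample channel alone Ddost kept it (-0.63, adjusted p = 0.0339), and the other 5 were at -0.80 to -0.41 (adjusted p from 0.0551 to 0.357).

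The other 4 tested subunits did not pass. Stt3a, the catalytic subunit that works at the channel during synthesis, stood at 2.04 and 2.20 in controls 2 and 4 and at 1.51 and 1.57 in PB-NICD 1 and 2 (-0.58 ± 0.15, adjusted p = 0.0647), and its other probes gave -0.18 and -0.07. Stt3b, the catalytic subunit that also works after synthesis, stood at 1.07, 1.11, 0.80 and 1.39 in controls and at 0.61, 0.72 and 0.86 in PB-NICD (-0.36 ± 0.14, adjusted p = 0.173), and its other probe gave -0.04. For both catalytic subunits the other probes thus lay closer to the level of no difference than the brightest one. Rpn1, a core subunit, stood at 2.13 and 1.81 in controls 2 and 4 and at 1.58 and 1.56 in PB-NICD 1 and 3 (-0.40 ± 0.17, adjusted p = 0.222). Magt1, the paralogue of Tusc3, stood at 2.57 and 2.07 in controls 1 and 4 and at 1.90 and 1.41 in PB-NICD 2 and 3 (-0.67 ± 0.23, adjusted p = 0.149). For Stt3a, Rpn1 and Magt1, 3 spots each were outliers. With those kept, Stt3a (-0.47, adjusted p = 0.0283) and Rpn1 (-0.48, 0.0277) passed the threshold and Magt1 (-0.75, 0.0672) did not.

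**Figure D2:**
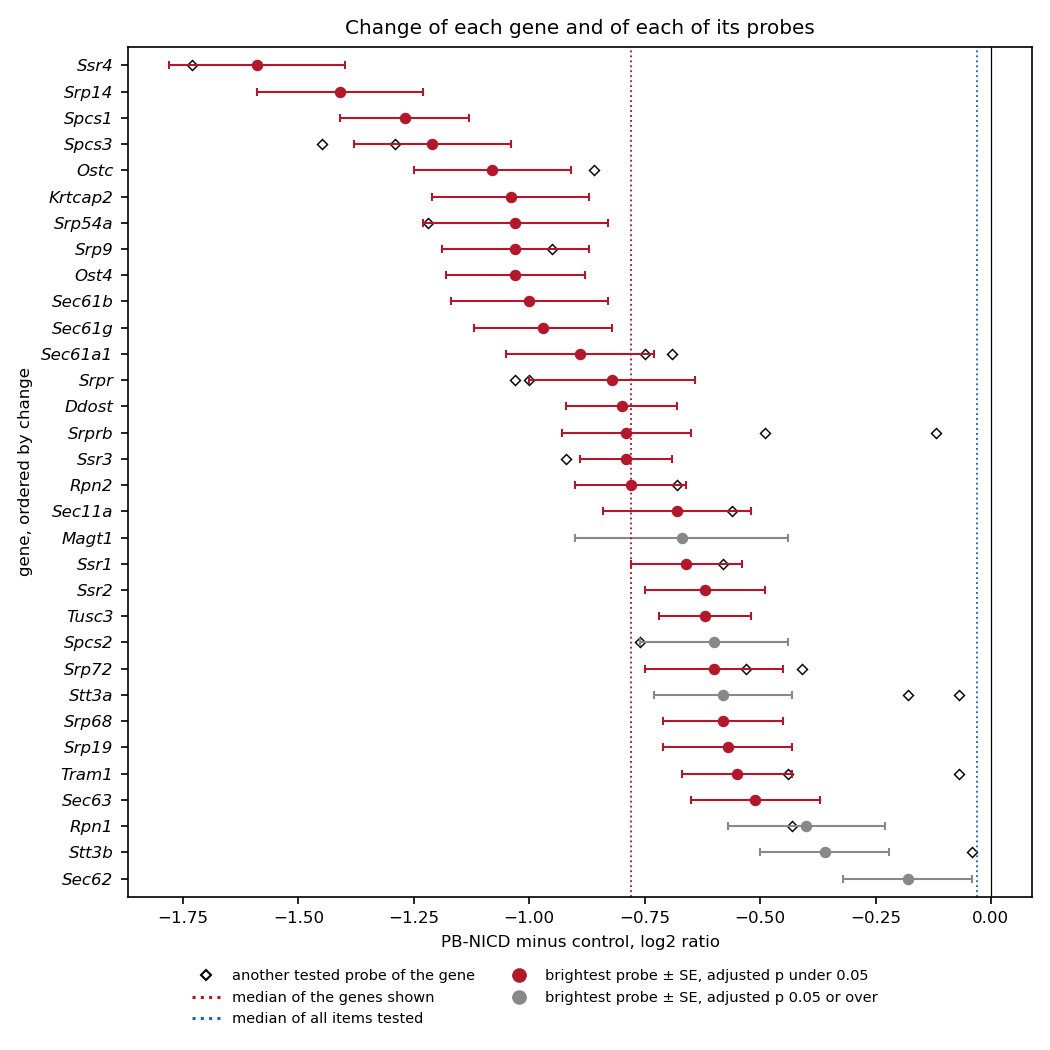
Change of each tested gene, PB-NICD minus control on the log2 scale (horizontal axis), ordered by size, with its standard error, red where called and grey where not, and open diamonds for the other tested probes of a gene. Every point and diamond lies below 0. The points of the brightest probes run from Ssr4 at -1.59 to Sec62 at -0.18. The diamonds run from Ssr4 at -1.73 to Stt3b at -0.04, and those of Stt3a, Stt3b, Tram1 and Srprb lie closest to 0.

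Over all probes of these genes, 57 were tested and all 57 had a difference below 0, with a median of -0.69. Taken each on its own, 40 of the 57 were called lower, beside 4.61% of the 21282 tested probes of the array. Of the 18 genes with several tested probes, 11 had every one called. Of the 18 genes with a value on all 7 arrays, 16 had every PB-NICD value below every control value, and over all items with 7 values the share was 14.2%.

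In 3 pairs of paralogues the members of a pair were compared with each other within each array (exact permutation test over samples, two-sided, outlier spots kept, 4 against 3, where the smallest possible p is 0.0571). The Stt3a minus Stt3b difference was 0.99 ± 0.23 (SD) in controls and 0.88 ± 0.03 in PB-NICD (exact p = 0.629). The Sec11a minus Sec11c difference was -1.14 ± 0.44 in controls and -1.41 ± 0.52 in PB-NICD (exact p = 0.571), and the Tusc3 minus Magt1 difference was -1.71 ± 0.47 and -1.58 ± 0.35 (exact p = 0.686). The 3 differences moved by -0.11, -0.27 and 0.13, each by less than its SD in controls, though the first by more than its SD in PB-NICD. The adjusted p was 0.686 for each pair by the exact test, in a design that cannot reach 0.05. With outlier spots left out, both pairs that still had 2 values a group moved by 0.00 (Stt3a minus Stt3b) and 0.10 (Tusc3 minus Magt1), where the smallest exact p is 0.333.

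In the control prostate all 32 genes stood above the reference RNA, with mean log2 ratios from 0.72 (Tusc3) to 4.11 (Ssr4) and a median of 2.12, while 53.2% of all items had a control mean above 0. Genes with the higher control ratio tended to show the larger fall, with r = -0.59 and rho = -0.54 between change and control mean across the 32 genes. The points share the control values on both axes and the genes are not independent replicates, so this is a description. All 32 PB-NICD means also stayed above 0, from 0.10 for Tusc3 to 2.75 for Tram1, so the genes were lower than in control prostate and still at or above the level of the reference.

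The wider pathway was counted over 68 further genes, of which 57 were tested, 7 were called lower and none higher (limma), beside 5.07% and 3.57% of all items. At an unadjusted p under 0.05, 16 were lower and 1 higher, beside 12.8% and 8.93% of all items. Its median change was -0.17, and 40 of the 57 lay below 0. In sugar nucleotide supply 3 of 9 were called: Gmppb (-1.46 ± 0.16, adjusted p = 0.00031), which makes the mannose donor GDP-mannose, its regulatory partner Gmppa (-0.47 ± 0.12, 0.0412), and Gfpt1 (-1.21 ± 0.15, 0.00221), the entry enzyme of the hexosamine pathway. Gmppb ran from 3.02 to 3.59 in controls and from 1.59 to 1.94 in PB-NICD. Among the genes that build the lipid-linked sugar chain 2 of 19 were called (median -0.14): Alg5 (-0.82 ± 0.16, 0.00923), which makes dolichol-linked glucose, and the mannosyltransferase gene Alg9 (-0.41 ± 0.11, 0.0431). Hm13, the signal peptide peptidase that cuts spent signal peptides, fell by 1.14 ± 0.16 (0.00143) from 1.89 to 2.51 in controls to 0.85 to 1.13 in PB-NICD. It was the 1 gene called of 3 tested in a list of further genes of the translocon and transferase.

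Get1, a receptor subunit for tail-anchored proteins, was the 1 gene called of 7 in that route (-0.67 ± 0.17, limma adjusted p = 0.0426). No gene was called among 6 for glycan trimming (median -0.15), 8 of the membrane protein complex (-0.12) or 5 of the glycosylphosphatidylinositol transamidase (0.06), where 2, 0 and 1 were lower at an unadjusted p under 0.05 in limma. The count of 7 was 4 when control 4, PB-NICD 1 or PB-NICD 2 was dropped. The list was not compared with the 32 genes by a test.

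**Figure D3:**
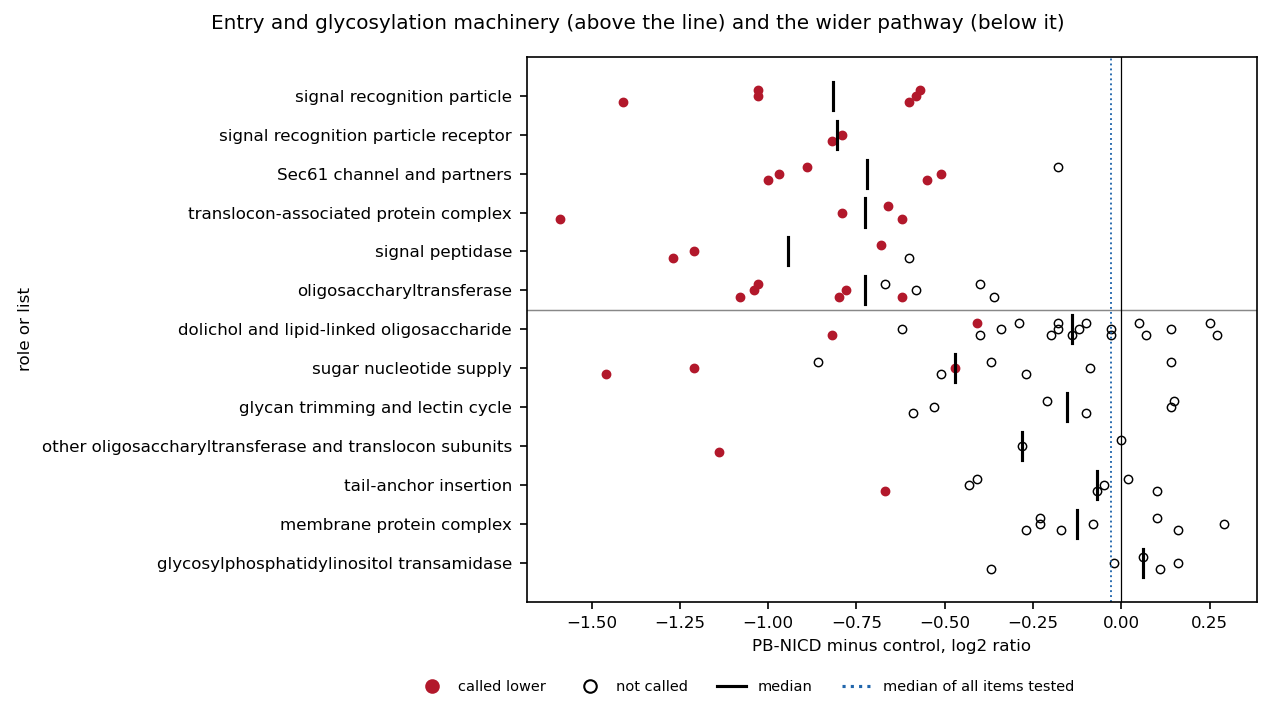
Change of each tested gene, PB-NICD minus control on the log2 scale (horizontal axis), by role for the 32 genes (above the line) and by list for 57 further genes of the pathway (below it), filled where called lower, with a bar at each median. Medians of the 6 roles lie between -0.95 and -0.72, and those of the 7 lists between -0.47 and 0.06.

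Markers of the cells in the gland moved with the groups to different degrees, and their part in the results above was not tested. The mean level of a list is given with outlier spots kept. Of 6 luminal markers 1 was called, Tmprss2 (-1.31, adjusted p = 0.00785), with a median of -0.01 for the list and mean levels of 2.80 to 3.13 in controls and 2.66 to 2.74 in PB-NICD. Of 4 basal markers Krt5 (-1.74, adjusted p = 0.000124) and Krt15 (-1.17, 0.00383) were called lower, and the list's mean level was 1.39 to 1.62 in controls and 0.40 to 0.64 in PB-NICD. None of 5 smooth muscle markers was called (median -0.52, mean level 2.56 to 2.85 against 2.05 to 2.52), and none of 4 fibroblast markers (median -0.11, mean level 0.63 to 0.69 against 0.28 to 1.13) or 4 leukocyte markers (median -0.09, mean level -0.52 to -0.39 against -0.60 to -0.45). The 1 endothelial marker tested, Pecam1, was at -0.05 (adjusted p = 0.816). Plasma cells hold much of this machinery, and their markers Jchain and Mzb1 lay at -4.96 to -3.50 and -2.49 to -1.67 in all samples. Neither was called (-0.49, limma adjusted p = 0.37, and -0.31, 0.328), while Sdc1 of the same list was called higher (0.93, 0.00147). In no sample did the Tnfrsf17 probe reach the level called well above background. Of 3 urothelial markers Upk3a was called higher (5.11, limma adjusted p = 0.000501), while Upk1b was at -0.56 (0.494) and Upk2 at 0.00 (0.991). The Upk3a call rests on controls 2 and 4 (-0.06 and -0.19) and PB-NICD 1 and 2 (5.72 and 4.23), the only arrays with a value in the test. The list's median was 0.00, and its mean level, with Upk3a and outlier spots in it, was 0.89 to 1.39 in controls and 2.37 to 2.63 in PB-NICD.

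Secretory products of the prostate showed a mixed picture. Sbp, a spermine-binding secretory protein, stood at 11.49, 10.38, 10.12 and 9.50 in controls and at 2.38, 4.75 and 9.44 in PB-NICD, a change of -4.85 (limma adjusted p = 0.0413) that differed widely between the 3 samples. Pbsn (-0.87, adjusted p = 0.151) and Msmb (0.00, 0.999) were not called. Of the seminal vesicle products, Svs4 (-0.49, adjusted p = 0.929) and Svs5 (-2.65, 0.5) were tested and neither was called. Svs4 varied widely within both groups, and Svs5 within the controls (3.79, 8.35 and -0.20, beside 1.69 and 0.97 in PB-NICD 2 and 3).

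**Figure D4:**
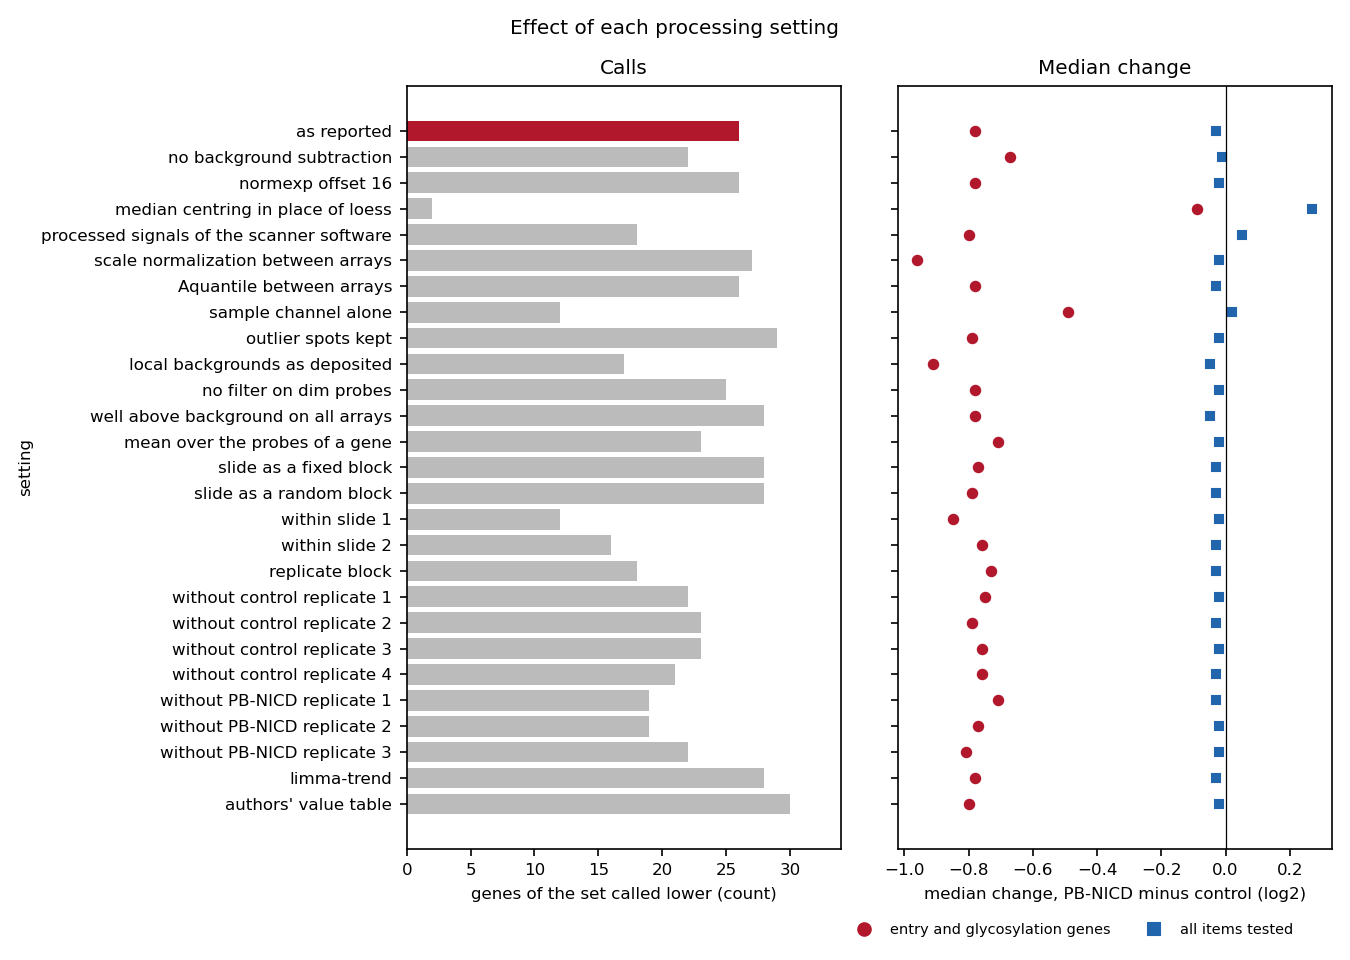
Genes of the set called lower (left, count) and median change, PB-NICD minus control on the log2 scale (right), for the 32 genes and for all items tested, under each processing setting. The count is 26 as reported and from 2 (median centring) to 30 (the authors' value table) elsewhere, and the median of the genes lies below that of all items in every setting shown. The within-slide and replicate block bars count fewer genes (22, 28 and 24 with a p-value).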

How the data were processed

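RNA of 7 prostate samples (4 control, 3 PB-NICD, grouped by the labels) was measured on 2-colour arrays, 3 on slide 1 (controls 1 and 2, PB-NICD 1) and 4 on slide 2, prostate cDNA in the red and reference RNA in the green channel of each, without dye swap. Agilent Feature Extraction 10.7.3.1 read the spots, per the file headers. Its deposited intensity columns hold unnormalised medians of spot and local background, and processed signals after the software's own background subtraction and dye normalisation. The deposited LogRatio is, per the file headers, log10 of red over green. Other deposited columns are 0 or 1 flags. The authors also deposited a log2 value table centred near 0, with a normalisation that the sources used here do not give and whose direction matched red over green (r = 0.989 to 0.995 with each array).

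Here, background was corrected by normexp (offset 50) and ratios by loess within arrays in limma 3.58.1 (R 4.3.3). The fit was planned with all local backgrounds as deposited. After seeing the data, backgrounds over 2 times an array's median (14 spots) were set to that median and those spots left out. Control spots had weight 0 and outlier spots were missing. A probe was tested if well above background in the sample channel on at least 3 arrays with at least 2 values a group, and the brightest per gene was used. Groups were compared by lmFit and eBayes with Benjamini-Hochberg adjustment over 16939 items at 0.05. Of 41174 probes, 24375 received a symbol through the RefSeq table (GRCm38.p6), by accession without version. The offset draws ratios of dim spots together, so their changes are understated, and the number of arrays limits the precision. The code was tested on simulated data. Members and lists were chosen with earlier results of these data known. Every member is named, and of the wider list those called. Alternatives covered background, normalisation, filters, probes, slide, replicate number, single arrays, the test and the authors' table.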

Additional observations from a re-analysis of the deposited data

How the results depend on the processing

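Of the 26 genes called lower, the number was 2 with median centring, 12 in the sample channel alone and 17 with local backgrounds as deposited. Within slide 2 it was 16 of the 28 genes with a p-value there. Within slide 1 it was 12 of 22, from a fit with 1 PB-NICD array that is assumed to vary like the controls, so neither can be set against 26 of 32. The number stayed within 1.5 times 26 under every other setting run (18 to 30). Leaving out each array gave 19 to 23. No gene was called higher in any setting. The median change of -0.78 was -0.67 without background subtraction, -0.09 with median centring, -0.96 with scaling between arrays, -0.49 in the sample channel alone and -0.91 with backgrounds as deposited. With median centring the changes of 13 genes turned positive, none of them called: Srp19 0.09, Srp68 0.02, Srp72 0.04, Sec62 0.04, Tram1 0.22, Ssr2 0.09, Spcs2 0.06, Stt3a 0.18, Stt3b 0.18, Rpn1 0.33, Rpn2 0.08, Ddost 0.09 and Magt1 0.05, beside a shift of all items to 0.27. The cause of these differences was not tested. Wider pathway genes called lower numbered 7, but 1 with median centring (and 14 called higher), 13 with slide as a fixed block and 4 to 8 with single arrays left out. Deviations of same-numbered samples had correlations of 0.32, -0.24 and 0.08 for numbers 1, 2 and 3. Control 2 and PB-NICD 2 were on different slides and the other pairs each on 1 slide. These values therefore cannot show whether the replicate numbers pair the samples. The fit with the replicate block called 18 of the 24 genes for which it gave a p-value. The dim sample channel limits all values, and those of the dimmer spots most. All 32 tested genes were well above background in it on all 7 arrays.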
